A study of Homo sapiens with 23 samples.

Results

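KO line 2F7 is 1 of 3 human Flower (hFWE) knockout lines made from SCC-13 cells. SCC-13 is a long-established line from a human squamous cell carcinoma of the skin. 2F7 was compared as grown tumours with hFWE wild-type (WT) tumours. The members were chosen by their labels: the 3 tumours labelled KO, 2F7 (specimens 5538, 5539 and 5540) against 11 WT tumours, 14 of the 23 tumours in the series. The WT tumours came from the lines 5B2 (4 tumours), 6C9 (3 tumours) and 6C10 (4 tumours). Another 6C9 tumour, specimen 5533, stood apart and was left out of the main comparison. The 8 tumours of the KO lines 2B8 and 1G10 were used only where stated. All tumours were subcutaneous xenografts in NCG mice, which lack functional lymphocytes, and all were harvested 26 days after injection. Poly(A)-selected, directional libraries were made from 500 ng of RNA. Host age and sex, and how the lines were derived, are not given in the sources used here. Because 2F7 is a single line, an effect of the line and an effect of the knockout cannot be told apart. The labels do not tie tumours to mice, so p-values measure the spread between tumours only.

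Flower is a membrane protein first described in the fly as a marker that cells display when they compete with their neighbours, and it is also linked to calcium entry and vesicle trafficking. The human gene, CACFD1, gives several protein isoforms. Squamous cell carcinoma cells can keep part of the programme of the epidermis: basal keratinocytes with KRT5 and KRT14 turn into suprabasal cells with KRT1 and KRT10, and then cornify, building an envelope of cross-linked proteins such as involucrin, loricrin and small proline-rich proteins. The series title places the hFWE4 isoform in cornification, so the epidermal gene lists are described here, by medians, counts and some of their members.

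CACFD1 is the gene named by the knockout, and its promoter window is shown because the gene was still transcribed in the 2F7 tumours. The window runs from 250 bases before to 50 bases after the RefSeq start, at chr9:133459728-133460027 on the plus strand of GRCh38.p14. Capitals mark GC boxes, searched as GGGCGG on both strands. All 4 matches read CCGCCC on the printed strand, and 45% of the 35116 promoter windows of that table hold at least 1 match. TATAA, searched on both strands, had no match here and is found in 20.4% of the windows.
CACFD1 promoter: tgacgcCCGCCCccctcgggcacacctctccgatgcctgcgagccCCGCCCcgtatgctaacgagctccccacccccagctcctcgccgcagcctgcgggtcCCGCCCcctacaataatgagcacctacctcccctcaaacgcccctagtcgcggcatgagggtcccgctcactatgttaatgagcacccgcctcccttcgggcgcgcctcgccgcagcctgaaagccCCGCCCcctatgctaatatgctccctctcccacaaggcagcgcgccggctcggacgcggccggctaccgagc

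The second pair of sequences is shown because the largest positive test statistic belonged to an RNA locus that the annotation lists under 2 names. RN7SK (chromosome 6, 52995621 to 52995948, plus strand) and 7SK (chromosome 6, 52995620 to 52995950, plus strand) overlap. The RN7SK transcript is 328 bases long, and all 328 occur in the 331 bases of 7SK. The first 60 bases of each follow, from GENCODE release 29, with the stretch that both excerpts show in capitals. The last RN7SK base shown also occurs in 7SK, just past the end of the 7SK excerpt.
RN7SK: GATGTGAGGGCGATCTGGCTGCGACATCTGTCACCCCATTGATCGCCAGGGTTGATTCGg
7SK: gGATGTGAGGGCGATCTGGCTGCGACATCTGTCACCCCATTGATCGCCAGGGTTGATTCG
The 2 entries therefore cannot be read as separate genes.

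CACFD1 (ENSG00000160325, chromosome 9, 133459965 to 133470848, plus strand in the deposited table) was read in all 3 tumours of 2F7. Its normalized value was 370 in specimen 5538, 349 in 5539 and 308 in 5540. Among the WT tumours it ran from 286 through a median of 370 to 432. The groups overlapped: 1 WT tumour lay below the lowest 2F7 value and 5 lay below the highest. The mean was 342 ± 31.6 (SD, n = 3) in 2F7 and 375 ± 48.7 (SD, n = 11) in WT, a log2 difference of −0.13 (exact permutation test over 364 splits, two-sided p = 0.321; the smallest p this design allows is 0.00275). A value summed over the gene cannot tell whether an intact Flower protein is encoded, so it checks neither the labels nor the protein. In the KO lines 2B8 and 1G10 the values were 218 to 321 and 167 to 281. CACFD1 was 0.46 higher in 2F7 than in those 8 tumours on the log2 scale (exact permutation test, two-sided p = 0.0303). The direction against WT turned when 2F7 was set against line 6C9 alone, to 0.074 (exact permutation test, p = 0.6).

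No gene passed the test between 2F7 and WT. In limma with Benjamini-Hochberg adjustment over 15937 genes, of which 12841 are protein coding, 0 genes (0%) had an adjusted p under 0.05, and the lowest adjusted p was 0.987. At an unadjusted p under 0.05, 347 genes were higher in 2F7 (2.18%) and 317 lower (1.99%). These 664 genes (4.17%) were fewer than the 797 that equal shares per p-value would place there. The median absolute difference was 0.12 on the log2 scale. The 95% interval of a gene's difference had a median half-width of 0.37, and a half-width of 0.21 to 0.90 between the 10th and 90th percentiles, so a small difference in many genes was not detectable with 3 tumours. The counts depended on single 2F7 tumours. Without 5540, 2000 genes had an unadjusted p under 0.05 and 0 were called, with a lowest adjusted p of 0.0606. Without 5538 the count was 353, without 5539 it was 303, and with WT specimen 5533 added it was 206.

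**Figure D1:**
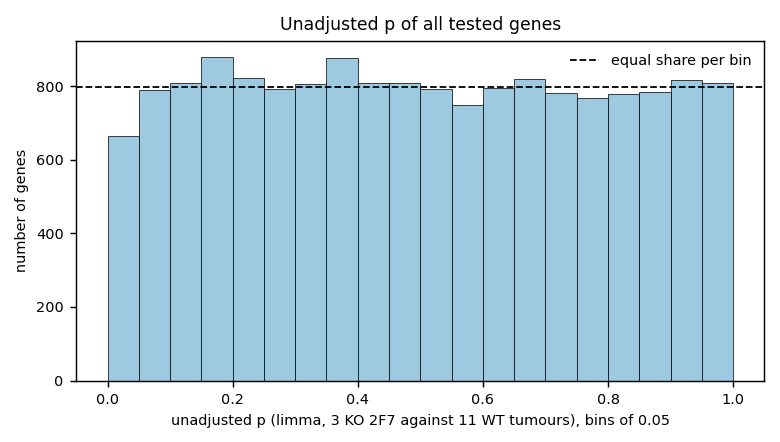
Number of tested genes (vertical axis) by unadjusted limma p (horizontal axis, bins of 0.05) for 3 KO 2F7 against 11 WT tumours; the dashed line is the count if every bin held an equal share. The first bin holds 664 genes, under the 797 of the line.

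A second description needs no model. All 3 tumours of 2F7 lay above all 11 WT tumours for 35 genes (0.22%) and below all of them for 33 genes (0.207%). Of 202 genes with an absolute log2 difference of at least 1, 11 had all 3 values outside the WT range, a larger share than over all genes. For the rest of them the groups overlapped.

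Genes from the 8 with the largest statistic in each direction, among those with official symbols, are given as values without a call, since the adjusted p of each was 0.987 in limma. KRT19, a keratin of simple and glandular epithelia, had the largest difference among the protein-coding genes on the higher side. Its value was 153 in specimen 5538, 82.9 in 5539 and 117 in 5540, against 8.93, 21.2 and 81.7 as the lowest, median and highest WT value. All 3 lay above the WT tumours, 5539 by a small margin only. The mean was 118 ± 35.3 (SD, n = 3) against 29.9 ± 23.4 (SD, n = 11), a log2 difference of 2.22 (SE 0.53; adjusted p = 0.987 in limma). The other KO lines read 7.54 to 35.9, below every 2F7 tumour, and the difference from them, 2.31 (SE 0.38), had an adjusted p of 0.251 in limma. KRT8 and KRT18, the other tested members of the list of simple epithelial keratins, did not follow at that size. KRT18 read 771, 626 and 628 in 2F7 against 487 to 701 in WT, and KRT8 read 114, 138 and 88.1 against 57.0 to 163.

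RN7SK, the RNA that holds the elongation factor P-TEFb in an inactive complex, read 76.8 in 5538, 241 in 5539 and 435 in 5540. The WT tumours read 8.21 to 71.4 with a median of 39.4. The lowest 2F7 tumour was just above the WT range while the highest was several times above it (log2 difference 2.54, SE 0.51, adjusted p = 0.987 in limma).

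The remaining higher genes had smaller differences. ANKRD18B, an ankyrin repeat gene, read 143, 117 and 98.7 in specimens 5538, 5539 and 5540 against 51.7 to 86.0 in WT, a log2 difference of 0.76. DYNC2H1, the heavy chain of the dynein that moves cargo back along cilia, read 221, 217 and 156 against 107 to 189, a difference of 0.64. TRERF1, a zinc finger regulator of steroidogenic gene transcription, read 232, 219 and 188 against 127 to 189, a difference of 0.48. Only ANKRD18B among these had all 3 tumours above WT. ANKHD1-EIF4EBP3, a readthrough transcript of neighbouring genes, read 849, 675 and 528 against 360 to 564. NPIPB5, a member of a multicopy family, read 826, 530 and 409 against 183 to 488. Both share sequence with other genes, and their values are uncertain. In 5 of these named genes (all but KRT19, RN7SK and 7SK) the value was highest in 5538 and lowest in 5540, and at the 7SK locus it was the reverse.

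Of the lower genes described here, GAREM2 and UBE2L5 had all 3 tumours below WT. GAREM2, an adaptor of growth factor signalling, read 13.7, 10.2 and 8.40 against 16.4 to 42.2 in WT, a difference of −1.20 (SE 0.29). UBE2L5 read 25.03, 20.9 and 24.9 against 30.5 to 50.3, a difference of −0.65. The other 5 described overlapped WT. C1orf115 read 18.3, 19.6 and 17.8 against 17.9 to 70.5, at the bottom of the WT range in all 3 tumours. ECSIT, an assembly factor of respiratory complex I, read 256, 229 and 213 against 251 to 338, and TCTA read 280, 293 and 378 against 370 to 485. PIGC, an enzyme of GPI anchor synthesis, read 303, 388 and 491 against 425 to 574, and FAM181B read 108, 157 and 134 against 125 to 262. In PIGC and TCTA the highest 2F7 tumour, 5540, was inside the WT range.

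**Figure D2:**
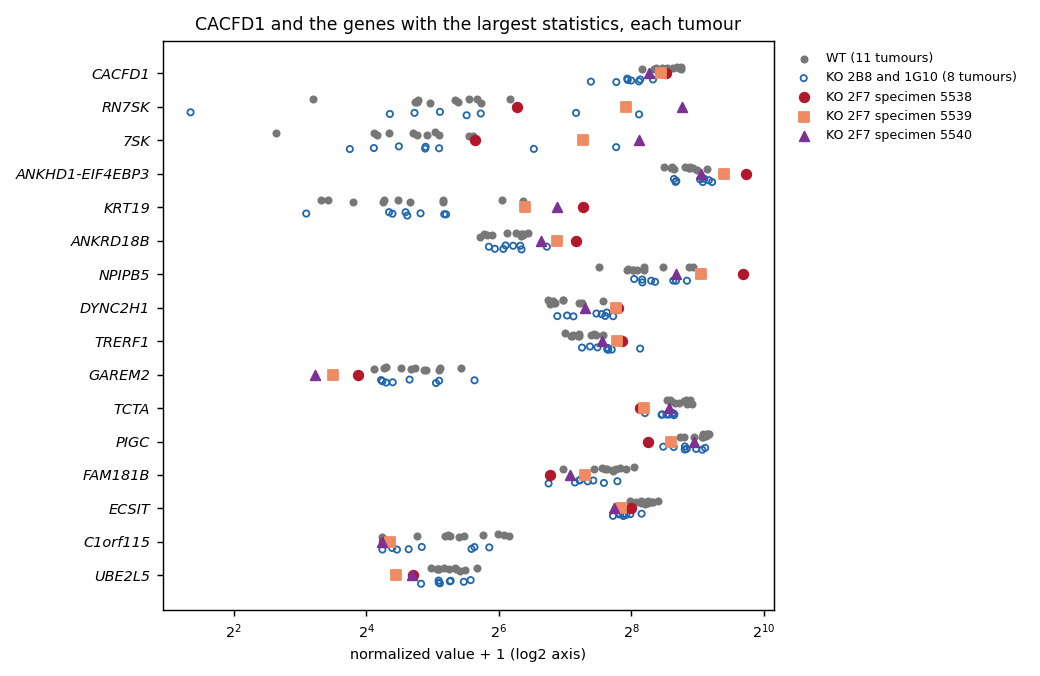
Normalized value + 1 (log2 axis) of CACFD1 and of the genes described from those with the largest statistics, for every tumour of KO 2F7 (coloured shapes), WT (grey) and the KO lines 2B8 and 1G10 (open circles). CACFD1 overlaps between 2F7 and WT, while the 3 KRT19 values of 2F7 (82.9 to 153) lie above all WT values.

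Short non-coding RNA genes separated the 2F7 tumours from each other. These RNAs carry no long poly(A) tail, so a poly(A)-selected library holds only a residue of them. Of 20 such entries tested outside the mitochondrial genome, 16 (80%) were above all 11 WT tumours in specimen 5539 and 16 in 5540. In 5538, 2 (10%) were above all WT tumours and 7 (35%) were below all of them. Over all tested genes, the shares above all WT tumours were 7.75%, 7.45% and 11.2% in the same order, and 14.3% of all tested genes were below all WT tumours in 5538. RPPH1, the RNA of RNase P, which trims transfer RNA precursors, read 4.58 in 5538, 274 in 5539 and 520 in 5540, against 8.08 to 42.9 in WT. RMRP, the RNA of the related RNase MRP, read 2.72, 57.5 and 121 (ENSG00000269900) against 1.33 to 9.27. A second RMRP entry (ENSG00000277027), the one counted among the 20, read 5.68, 52.4 and 57.1 against 0.076 to 11.7. For RPPH1 and both RMRP entries, 5538 was at the WT level or below it, and 5539 and 5540 were far above. RN7SL1, the RNA of the signal recognition particle, read 941, 2288 and 3701 against 105 to 1271, and RN7SL2 read 707, 1635 and 2562 against 124 to 1182. RNA5-8SN2, a 5.8S ribosomal RNA gene, read 39.1, 1063 and 2776 against 51.7 to 612. RNU4-2, a spliceosomal RNA, was listed at 0 in 5538 and read 56.8 and 174 in the others, against 0 to 32.9. SNORD3A, the U3 small nucleolar RNA, read 5.41, 85.8 and 155 against 7.62 to 40.5. Several of these entries are copies of each other and share reads, such as RNU1-27P and RNU1-28P with identical values. RN7SK with 7SK and the 5.8S entries are others, so the shares count entries and not separate loci. Those below WT in 5538 included several 5.8S entries. They also included RNU2-2P, at 0 against a lowest WT value of 2.5e-26, which is practically a tie.

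Some of these RNAs were also high in the WT tumour left out of the comparison and in some tumours of another KO line. WT specimen 5533 read 3898 for RN7SL1, above every 2F7 tumour, 133 for SNORD3A and 139 for RN7SK, above 5538. That library was shallow, with an estimated 2037744 reads and a value of 9.14 for 1 read, so its values are coarse. SNORA73B and RNU2-2P were at 0 in it. In 1G10 the highest tumour read 375 for RPPH1 and 46.5 for RMRP, while the lowest read 10.1 and 3.28. In 2B8 the highest read 27.2 and 17.3. The second RMRP entry read up to 97.2 in 1G10, above every 2F7 tumour, and up to 10.8 in 2B8. When 5538 was left out, only 2 genes were called in limma. They were RMRP (ENSG00000269900, log2 difference 4.14, adjusted p = 0.0149) and RPPH1 (4.29, adjusted p = 0.0107). The second RMRP entry was not called. With 5538 the differences of the 2 called genes were 2.64 and 2.27 and neither was called. RNA quality and the residue left by poly(A) selection in each library are not given in the sources used here, and their part in this pattern was not tested.

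The 3 tumours of 2F7 were not alike in other respects. Over all tested genes the correlation of log2 values was 0.977 between 5538 and 5539, 0.971 between 5539 and 5540 and 0.951 between 5538 and 5540, and 1934 genes were at least 2-fold apart in the last pair. This is a description across genes, which are not independent replicates. Specimen 5539 was the middle tumour for 54.3% of genes. The median gene SD was 0.24 within 2F7, and 0.24, 0.28 and 0.16 within the WT lines 5B2, 6C9 and 6C10, so the spread within 2F7 was of the size seen within WT lines. Values of 3 long non-coding RNA genes, picked after they were seen, were highest in 5538 and lowest in 5540. NEAT1, the scaffold of paraspeckles, read 50697, 43428 and 20631 against 16366 to 63582 in WT, and MALAT1, an RNA of nuclear speckles, read 66374, 52752 and 32618 against 15715 to 62281. KCNQ1OT1, an imprinted antisense RNA, read 265, 229 and 122 against 42.2 to 199. MALAT1 and KCNQ1OT1 were at an unadjusted p under 0.05 in limma, both with an adjusted p of 0.987, and only 5538 was above all WT tumours for MALAT1.

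Lists of genes for the epidermis, signalling and metabolism showed where each 2F7 tumour stood. Each list is described by the median, over its tested members, of log2(value + 1) minus the WT mean of the gene. Of 30 pathway lists, all 3 tumours lay within the WT range in 26, and in 0 lists did all 3 lie on the same side outside it. All 3 tumours were below 0 in 7 lists and above 0 in 5. Of 762 distinct members tested, 0 were called and 26 had an unadjusted p under 0.05, which is 3.41% against 4.17% of all genes. Members named below for such a p were picked after their values were seen, and each had an adjusted p of 0.987 in limma unless another is given. Over all tested genes the median log2 difference was −0.01 and 52.2% were negative.

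The cornification programme in 2F7 lay inside the WT spread. For 43 cornified envelope proteins the medians were −0.38, 0.05 and −0.03 in 5538, 5539 and 5540, against −0.72 to 0.42 in WT. The list's median log2 difference was −0.08, with 25 members negative. FLG, filaggrin, which bundles keratin filaments, read 116293, 147943 and 43696 against 19750, 110221 and 139602 as the lowest, median and highest WT value. CDSN, corneodesmosin, which holds cornified cells together, read 47831, 51048 and 53227 against 39629 to 85716. IVL, involucrin, read 11026, 11943 and 16403 against 8058 to 21488, and LORICRIN read 12811, 13019 and 7818 against 2982 to 35155. None of these 4 stood outside WT as a group, although 5539 alone was above all WT tumours for FLG. The 3 members at an unadjusted p under 0.05 were small proline-rich proteins, all lower. SPRR2E read 988, 1025 and 2427 against 1314 to 4830, SPRR2G read 808, 1464 and 3950 against 1974 to 5049, and SPRR2B read 32.2, 13.6 and 77.4 against 31.6 to 273. In each of them 5540 was inside the WT range. Their family members are close in sequence, so reads may be shared.

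The 28 suprabasal and late differentiation genes had medians of −0.17, −0.05 and −0.26, against −1.17 to 0.44 in WT. KRT10, the keratin of suprabasal cells, read 113465, 181589 and 121077 against 75726, 185954 and 267276. KRT1, its partner, read 52811, 81909 and 49261 against 31439, 80792 and 119700. The intervals of both were wide, −0.90 to 0.34 for KRT10 and −1.04 to 0.38 for KRT1 on the log2 scale. In this list 0 of 28 genes had an unadjusted p under 0.05 and 21 were negative. KRT2, a late keratin, read 207, 699 and 3823 in the 3 tumours, spanning the whole WT range of 375 to 3526 and beyond at both ends.

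Epidermal proteases and their inhibitors release and regulate the outer cells. Of 21 tested, 19 were negative and 0 had an unadjusted p under 0.05, with a median difference of −0.16. KLK5, a kallikrein of shedding, read 5536, 5224 and 3072 against 1315, 6922 and 9620 in WT, and KLK10 read 2104, 1822 and 1069 against 746, 2759 and 3623. PI3, an elastase inhibitor, read 17652, 14909 and 15346 against 7750 to 24741, and SPINK5, the inhibitor of kallikreins, read 10470, 8577 and 7506 against 5508 to 13289. All of these 2F7 values were inside the WT range. Of 29 barrier lipid genes, 25 were negative with a median of −0.20. SULT2B1, which makes cholesterol sulfate, read 1763, 1932 and 1912 against 1777 to 2996 (log2 difference −0.36, SE 0.13). SMPD1, acid sphingomyelinase, read 403, 436 and 360 against 406 to 702. These 2 members had an unadjusted p under 0.05. ABCA12, the lipid carrier of lamellar granules, read 3478, 3686 and 2293 against 1483 to 4320.

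The mostly negative signs in these lists are set against a WT group that was itself spread out. In the list of late differentiation genes the lowest WT tumour, 5531 of line 6C9, stood at −1.17 while the highest, 5528 of line 5B2, stood at 0.44. The members of a list vary together, so counts of signs are not counts of independent genes. In the other KO lines the same list ran from −1.18 to −0.48 in 2B8, below all 3 tumours of 2F7, and from −2.33 to −0.11 in 1G10, which overlapped 2F7. FLG was 2.05 higher in 2F7 than in the 8 tumours of 2B8 and 1G10 on the log2 scale (SE 0.75, adjusted p = 0.491 in limma), and LORICRIN was 2.31 higher (SE 0.94, adjusted p = 0.532), so neither difference passed the test.

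Basal keratinocyte genes were near WT in all 3 tumours, with medians of 0.11, 0.05 and 0.003 and 11 of 22 members positive. KRT14 read 279754, 298144 and 317643 against 202703 to 412428, and KRT5 read 260352, 312011 and 286040 against 193492 to 343215. Of 25 wound keratins and alarmins 0 had an unadjusted p under 0.05, and the medians were −0.23, −0.22 and 0.21. KRT6A read 209518, 226170 and 221768 against 172752 to 287835, and KRT16 read 142293, 152945 and 207199 against 107017 to 239022. Specimen 5540 was above the WT range of the list, −0.26 to 0.15. Among 13 desmosome genes, which anchor keratinocytes to each other, 11 were positive. DSP, desmoplakin, read 127969, 148494 and 114148 against 69312 to 167377 (log2 difference 0.41, interval −0.01 to 0.83).

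Of 32 differentiation transcription factors, 2 had an unadjusted p under 0.05, both lower. CEBPB, a factor of suprabasal keratinocytes, read 3774, 3724 and 3695 against 3873 to 5549, below all WT tumours with little spread among the 3. Its log2 difference was −0.24 (SE 0.10). OVOL1, a repressor that drives exit from the basal state, read 1128, 1019 and 979 against 967 to 1544. JUNB and KLF5 lay inside the WT range in all 3 tumours. The gap junction gene GJB5 was among the 18 junction genes tested and had such a p. It read 1024, 1130 and 1355 against 1195 to 1561.

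**Figure D3:**
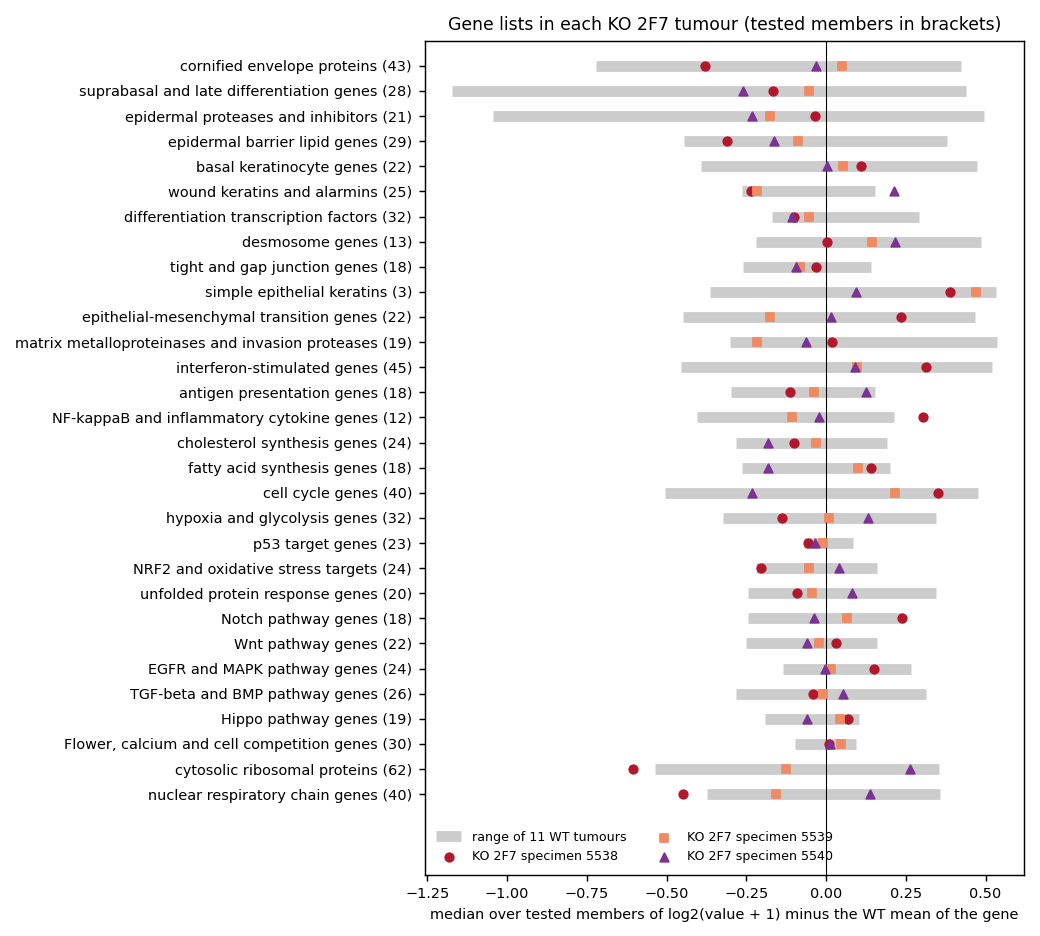
For each of the 30 pathway lists, the median over its tested members (number in brackets) of log2(value + 1) minus the WT mean of the gene, per 2F7 tumour (shapes), with the range of the 11 WT tumours (grey bars). All 3 shapes fall on the bar in 26 lists; specimen 5538 is left of the bar for ribosomal protein (−0.61) and respiratory chain genes (−0.45).

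Interferon-stimulated genes were the list with the most members higher at an unadjusted p under 0.05, 4 of 45, with 1 lower. Over all tested genes, 2.18% were higher and 1.99% lower at such a p. The lists hold from 3 to 62 tested members, so these counts do not rank them. DDX60, a helicase of antiviral responses, read 208, 210 and 208 against 91.9, 163 and 187 as the lowest, median and highest WT value, so all 3 tumours were above WT (log2 difference 0.41, SE 0.16). In 2B8 it read 236 to 332, above every 2F7 tumour, and in 1G10 it read 147 to 248. DDX60L read 168, 187 and 111 against 82.1 to 136, SAMD9L read 177, 113 and 65.1 against 52.8 to 104, and HERC6 read 204, 177 and 123 against 64.9 to 157. In these 3 genes 5540 was inside the WT range. OASL, a relative of the oligoadenylate synthetases, was lower, at 179, 209 and 195 against 155 to 366. BST2 read 1963, 1904 and 2338 against 1890 to 3060, and IFITM3 read 2001, 1905 and 2708 against 1292 to 2990. RSAD2, which makes an antiviral nucleotide, read 88.6, 61.5 and 95.5 against 23.6 to 142. Of 18 antigen presentation genes 0 had an unadjusted p under 0.05. B2M, the light chain of HLA class I, read 4178, 6309 and 8476 against 5080 to 8817, so 5538 was below WT and 5540 was not. The medians of the interferon list were 0.31, 0.10 and 0.09, inside the WT range of −0.46 to 0.52, with 33 of 45 members positive. The medians of this list were also above 0 in every tumour of the other KO lines, at 0.21 to 0.93 in 2B8 and 0.15 to 0.51 in 1G10.

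Of the signalling lists, 1 gene each had an unadjusted p under 0.05 in the Wnt list (WNT4, lower, 1238, 1580 and 1938 against 1560 to 2903) and in the TGF-beta and BMP list (BAMBI, a decoy receptor, lower, 19.8, 29.8 and 40.9 against 30.8 to 56.5). In the EGFR and MAPK, Hippo and Notch lists there was 0 of 24, 0 of 19 and 0 of 18. EGFR read 4656, 5191 and 3676 against 2958 to 5653, and TGFB1 read 4133, 3711 and 3660 against 3010 to 5174. The Notch ligand gene JAG1 read 3173, 2829 and 4004 against 1729 to 4799. All 3 of these genes were inside the WT range. The 30 tested genes of Flower, calcium handling and cell competition had medians of 0.01, 0.05 and 0.01, inside a WT range of −0.10 to 0.09. Of these 30, 1 had an unadjusted p under 0.05 in limma and was lower. ATP2A2, the calcium pump of the endoplasmic reticulum, read 5701, 5179 and 3956 against 3650 to 5322.

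No invasion gene passed the test. Of 19 matrix metalloproteinases and invasion proteases, TIMP2, an inhibitor of these enzymes, was the 1 at an unadjusted p under 0.05, at 1199, 1107 and 921 against 1073 to 1545. MMP1, a collagenase, read 10081, 7070 and 14784 against 5265 to 19606, and MMP14, a membrane-bound activator, read 7566, 7317 and 7520 against 5922 to 11856. Both lay inside the WT range. Of 22 epithelial-mesenchymal transition genes, CALD1, an actin-binding protein, was the 1 at such a p, higher at 1861, 1689 and 1512 against 1187 to 1555.

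In several metabolic and growth lists the 3 tumours of 2F7 lay far apart. The 62 cytosolic ribosomal protein genes had medians of −0.61, −0.13 and 0.26, against −0.54 to 0.35 in WT, so 5538 was below every WT tumour and 5540 was among the higher values. RPL8 read 23588, 29576 and 35682 against 26498 to 42333. The 40 nuclear respiratory chain genes had medians of −0.45, −0.16 and 0.14 against −0.37 to 0.36. Over the group 60 of 62 and 39 of 40 members were negative, with median differences of −0.17 and −0.14. Cell cycle genes ran the other way, at 0.35, 0.22 and −0.23 against −0.50 to 0.48. Of the 40 cell cycle genes tested, 31 were positive, with a median difference of 0.09, and 1 was lower at an unadjusted p under 0.05. CCNE1, the cyclin of entry into DNA replication, went against most of this list. It read 103, 66.1 and 38.8 against 79.1 to 129. The 13 mitochondrially encoded transcripts were all negative, at −0.71, −0.49 and −0.15 against −0.48 to 0.77. MT-CO1 read 37201, 44765 and 58977 against 42560 to 100644. Of 24 cholesterol synthesis genes, 19 were negative, with INSIG1, a sterol sensor, at 498, 554 and 618 against 461 to 990. Among the stress lists, 1 member each had an unadjusted p under 0.05. TXNRD1, a thioredoxin reductase of the NRF2 list, read 154, 164 and 172 against 147 to 277, ATF4, a factor of the unfolded protein response, read 2156, 2698 and 3111 against 2594 to 3620, and SPATA18 of the p53 list read 138, 125 and 133 against 83.9 to 136. Each overlapped WT. NDRG1 and SLC2A1 of the hypoxia list, and HSPA5 of the unfolded protein response, were inside the WT range in all 3 tumours.

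Depth and tissue makeup bear on the values. The step between neighbouring low values of a tumour was taken as the value of 1 read, which gave an estimated 13224932 to 16559356 reads in the 2F7 tumours and 7010962 to 22092275 in the 11 WT tumours. Mitochondrial genes took 1.39% to 2.01% of the total in 2F7 and 1.46% to 3.50% in WT. Keratinocyte markers were all detected, with summed values of 1281290, 1426780 and 1524050 in 2F7 against 1068390 to 1814080 in WT, so all 3 sums were inside the WT range. Fibroblast and matrix markers (15 of 15 in the table) summed to 10643, 10957 and 9943 against 8599 to 22422. Endothelial markers (11 of 11) summed to 472, 499 and 411 against 439 to 576, and myeloid markers (10 of 14) to 578, 428 and 504 against 481 to 660. Skeletal muscle markers (13 of 13) summed to 16360 in 5538, 2250 in 5539 and 1504 in 5540 against 519 to 17911. Specimen 5538 was thus near the top of the WT range and the only 2F7 tumour there. Of the listed adipocyte genes, CIDEC was at 0 in all 3 tumours. The labels do not say what was done with reads from the mouse host, and the part of host tissue in any value was not tested. Fewer cells of a type and less RNA per cell cannot be told apart in bulk tumours.

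Medians per chromosome placed 1 tumour of 2F7 apart from the other 2. On chromosome 20 (410 tested genes) specimen 5538 stood at −0.08, 5539 at −0.10 and 5540 at 0.27 relative to the WT mean of each gene. Of the WT tumours, 5531 and 5529 stood at 0.44 and 0.43 and the other 9 between −0.11 and −0.06. Specimen 5540 was thus between the 2 sets of WT tumours and the other 2 tumours of 2F7 were with the lower one. None of the 23 chromosomes passed the exact permutation test of 3 against 11 values after Benjamini-Hochberg adjustment. The lowest adjusted p was 0.885, for chromosome 11 (raw two-sided exact p = 0.0385, difference −0.03).

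**Figure D4:**
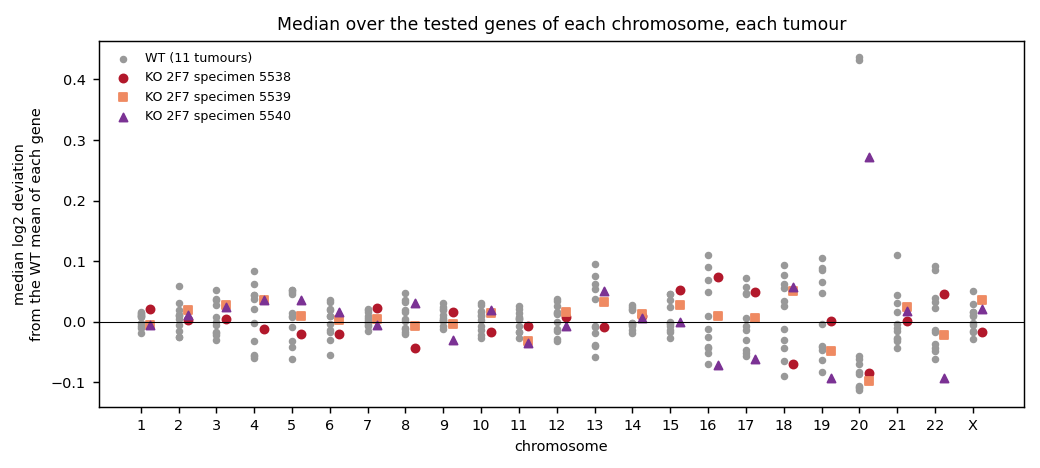
Median over the tested genes of each chromosome of the log2 deviation from the WT mean of the gene (vertical axis), for the 11 WT tumours (grey) and each 2F7 tumour (shapes). On chromosome 20, 5540 sits at 0.27 while 5538 and 5539 sit at −0.08 and −0.10, and 2 WT tumours sit at 0.43 and 0.44.

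Against the 8 tumours of the KO lines 2B8 and 1G10, a comparison that has the 2F7 tumours in common with that against WT, 1 gene was called (0.00627%) and 1393 (8.74%) had an unadjusted p under 0.05. The called gene was SMAD7 (chromosome 18, 48919853 to 48950965, minus strand), an inhibitor of TGF-beta signalling. It read 216, 202 and 184 in 2F7, 323 to 394 in 2B8 and 313 to 403 in 1G10, so all 3 tumours were below all 8. The log2 difference was −0.81 (SE 0.10; adjusted p = 0.0347 in limma). In WT it read 191 to 372 and the 2F7 values lay at the lower end, with a difference of −0.27 (SE 0.18; adjusted p = 0.987). The call rested on single tumours. With 1 tumour left out at a time, the adjusted p of SMAD7 itself ran from 0.0357 to 0.333, and it stayed under 0.05 only without 1G10 specimen 5548 (0.0357) or 5549 (0.0458). Without 2B8 specimen 5544, 1 gene was called, and without 2F7 specimen 5540, 4 genes were called. SMAD7 was not among them, with an adjusted p of 0.0503 and 0.0702 in limma. Of the 16 genes with the largest statistics against WT, 0 were called against the other KO lines.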

How the data were processed

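RNA of 23 xenograft tumours was sequenced, per the labels' protocols. The authors deposited 1 table of signal values, normalized read abundances for 27589 genes. STAR, DESeq2 and the build hg38 are named in the submitters' processing notes, with no versions or roles. The annotation, strand setting and treatment of mouse reads are not given in the sources used here. Whole reads were not recovered, so no count model was used. Values were taken as log2(value + 1) where the mean over the 14 libraries reached 10, and the pseudocount of 1 understates the differences of low genes. The 2 groups were compared in limma 3.58.1 (R 4.3.3; variance prior trended and robust), two-sided, Benjamini-Hochberg threshold 0.05, and it was tested on simulated data. Single values and chromosome medians used exact permutation tests. Genes named were CACFD1, the 8 with the largest statistic in each direction, and the 2 members with the highest mean of each list; other list members were added after their values were seen, and some genes that these rules name are not reported here. The groups and the 30 pathway and 11 marker lists were chosen with earlier results of these data known. Alternatives covered pseudocount, filter, scaling, line terms, library weights, WT lines and each tumour left out.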

Additional observations from a re-analysis of the deposited data

Results flagged for a closer look

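KRT19 in WT line 5B2 had 1 tumour far from its others: specimen 5528 read 64.9 while the other 3 read 8.93 to 18.2. The gap took a larger share of the group's range, 0.834, than Dixon's critical value at that group size. Over 34 such checks, chance alone gives about 1 in 20. All 3 tumours of 2F7 were above 5528.

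SMAD7 was lower in 2F7 than in the other KO lines by a test of that difference in limma, with a log2 difference of −0.81 (adjusted p = 0.0347, 3 of 3 tumours below all 8). The call of SMAD7 was lost in 9 of 11 fits with 1 tumour left out. In 2 of those 9, without 2B8 specimen 5544 or 2F7 specimen 5540, other genes were called (1 and 4).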

How the results depend on the processing

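No paired analysis was possible because the specimen labels are unique to each tumour and no number is shared between lines. Of 29 alternative settings, 2 leave out WT specimen 5532 alone and are the same fit, counted 2 times. In 26 of the 29, 0 genes were called between 2F7 and WT in limma. The exceptions were 1 gene against WT line 6C10 alone (WFDC21P, −2.14, adjusted p = 0.0129), up to 2 with 1 tumour left out (range 0 to 2) and 6565 with library weights. In the weighted fit, specimen 5539 took a weight of 37.7, the next largest was 1.42, and the weight estimation stopped before convergence. The number of genes at an unadjusted p under 0.05 was 664, and became 1487 against 6C10 alone, 7979 with weights, 1266 without the filter on low values, 206 with specimen 5533 and 303 to 2000 with 1 tumour left out. CACFD1 reversed to 0.074 against WT line 6C9 alone and ran from −0.18 to −0.05 with 1 tumour left out. The cause was not tested in any of these. The count called against the other KO lines ran from 0 to 4 with 1 tumour left out, an alternative chosen after seeing the data except for specimen 5549. The 16 leading genes were picked by their statistics in the main fit, and most settings reuse its libraries. Their sign was thus largely fixed in advance, and it changed in 0 of the 29 settings. They passed the threshold only with library weights. Of 1740 values of list members under the alternatives, 116 changed sign, and 65 of 870 list medians moved by more than 1 SD. The precision that depth gives to low genes was not tested.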
